A study of Mus musculus with 30 samples.

Results

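The genes described here encode the proteins of mitochondrial and peroxisomal fatty acid oxidation and of peroxisome assembly. They were chosen by gene name, by a rule that uses no measured value but was set with earlier results of these data known: the acyl-CoA oxidases (Acox), acyl-CoA dehydrogenases (Acad), acyl-CoA thioesterases (Acot), long-chain and medium-chain acyl-CoA synthetases (Acsl, Acsm), thiolases (Acaa), peroxins (Pex), the Hadh, Ech, Eci and Decr enzymes, the Abcd transporters, and Ehhadh, Cpt2, Crat, Crot, Etfa, Etfb and Etfdh. The rule found 80 of the 29117 genes in the table. Of these, 74 passed the filter on low values, which asked for at least 1 FPKM in 3 or more of 30 libraries. The other 6 were Acot10, Acot11, Acot6, Acsl6, Acsm2 and Pex5l. Pex13-ps, which is among the 74, is named as a pseudogene. Names do not follow function throughout, since Acad8 and Acadsb act on branched-chain amino acids and Abcd4 is placed with vitamin B12 transport.

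Mice of the inbred C57BL/6J strain, 10 weeks old, were fasted for 12 to 16 h. They then received either human insulin at 0.7 U/kg or phosphate-buffered saline (PBS), by injection into the peritoneal cavity. Poly(A) RNA of the left liver lobe was sequenced at 5 sampling points over 4 h, with 3 insulin libraries and 3 PBS libraries at each point. The labels number the points 1 to 5 without minutes and give no sex, so no interval between points is assumed here.

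In fatty acid oxidation, an acyl-CoA synthetase first activates the fatty acid, the carnitine system carries it into the mitochondrion, and rounds of dehydrogenation, hydration, dehydrogenation and thiolysis release acetyl-CoA. Peroxisomes run a parallel chain that shortens very-long-chain and branched fatty acids, and peroxins build the organelle and import its enzymes. In fasted liver this oxidation feeds ketone body synthesis. PPARalpha, a nuclear receptor for fatty acids, drives many of the genes, and insulin is known to oppose the fasted state.

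Values are FPKM, read fragments divided by transcript length and by all fragments mapped in the library, as deposited. FPKM carry no depth. A rough estimate of it from the steps between low values, at which 40.8% to 55.8% of the values used were whole reads within 0.05, ran from 19.9 M to 40.55 M reads, with a median of 30.5 M in insulin libraries and 31.85 M in PBS libraries. Within groups, Pearson r between libraries across the genes tested was 0.966 to 0.983. All insulin libraries carry lane numbers 1 or 2 and all PBS libraries lane numbers 3, 4 or 5, so an effect of lane cannot be told apart from treatment. The 10 hepatocyte markers, Alb and Apoa1 among them, summed to 48781 to 65778 FPKM in insulin libraries and to 55720 to 66482 FPKM in PBS libraries, so the RNA was of liver as the labels state. In whole liver, fewer cells of a type and less RNA per cell cannot be told apart. A gene rose or fell below when limma's moderated test, adjusted over all 13589 genes tested, gave an adjusted p below 0.05. Sizes are differences of log2(FPKM + 1), insulin minus PBS, with standard errors and 3 libraries per group, and they understate the change of low genes. Nothing states that the libraries of a group came from separate animals, so p-values measure the spread between libraries.

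The genes together took 0.939% to 1.22% of each insulin library's total FPKM and 0.939% to 1.53% of each PBS library's. At points 2, 3 and 5 every insulin library lay below every PBS library in this share. The highest insulin shares there were 1.06%, 1.131% and 1.156%, and the lowest PBS shares 1.16%, 1.19% and 1.176%. At points 1 and 4 the treatments overlapped. The difference in share was not tested. Among the highest were Acsl1, with a median of 567 FPKM over the 30 libraries, Ehhadh with 487, Acaa1b with 446 and Acaa2 with 399 FPKM. A mean of 100 FPKM or more was reached by 23 of the genes. Variation between libraries differed widely. Etfa, a subunit of the flavoprotein that takes electrons from the dehydrogenases, ran from 218 to 284 FPKM over all 30 libraries. Acot3, a peroxisomal thioesterase, ran from 2.24 to 29.1 FPKM.

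Across the 5 points, 28 of the 74 genes passed the test at 1 point or more and 46 passed at none. The share of all genes tested that passed at 1 point or more was not computed. No gene passed at point 1, where 0% of all genes tested rose and 0.00736% fell, while 6 of the 74 had an unadjusted p below 0.05, all lower in insulin. At point 2, 0 genes rose (1 at an unadjusted p below 0.05) and 1, Pex11g, fell, against 0.618% and 0.736% of all genes tested. Without PBS replicate 1, 9 fell at point 2, and the call of Pex11g was lost without insulin replicate 1, 2 or 3 or PBS replicate 2 or 3 (adjusted p of 0.0694 to 0.199). At point 3, 2 rose and 7 fell, 2.7% and 9.46% of the 74, against 2.19% and 7.26% of all genes tested. At point 4, 0 rose (1 at an unadjusted p below 0.05) and 16 fell, 21.6% of the 74, against 2.82% and 10.4% of all genes tested. At point 5, 2 rose and 17 fell, 23% of the 74 for the genes that fell, against 2.96% and 16.1%. Removing 1 library at point 4 gave 4 to 23 that fell, the fewest without PBS replicate 3. It gave 5 without insulin replicate 2, 6 when insulin replicate 1 was left out and 10 when PBS replicate 1 was. At point 3 it gave 2 without insulin replicate 2 or PBS replicate 3, and 4 without insulin replicate 1, PBS replicate 1 or PBS replicate 2. At point 5, 8 genes fell once insulin replicate 1 was removed, 9 once PBS replicate 3 was and 10 once PBS replicate 2 was. At point 3 only 1 gene rose when any library but PBS replicate 3 was left out, and at point 5 only 1 when insulin replicate 1 or 3 or PBS replicate 1 was. As deposited and with all libraries kept, the share of the genes that fell at point 3 was close to that of all genes. At points 4 and 5 it was higher. The matching shares of all genes in fits that left out a library were not computed.

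These counts depend on how libraries are scaled, because the median difference of all genes tested was -0.06, -0.12, -0.14, -0.14 and -0.17 at points 1 to 5. The median over the 74 genes was -0.06, -0.27, -0.22, -0.28 and -0.20. With median-ratio scaling, which brings the median of all genes to within 0.02 of 0, the median over the 74 was -0.0037, -0.13, -0.05, -0.12 and 0.02. On that scale 0 rose and 0 fell at point 1, against 0.00736% of all genes in each direction, and likewise at point 2, against 1.1% and 0.419%. At an unadjusted p below 0.05 there were 2 higher and 4 lower at point 1, and 2 higher and 19 lower at point 2. For these and the other unadjusted counts by direction, role or list, the matching share of all genes was not computed. At point 3, 3 rose and 4 fell, 4.05% and 5.41% of the 74, against 5.16% and 3.58% of all genes. At point 4, 0 rose (6 at an unadjusted p below 0.05) and 6 fell, 8.11% of the 74 for the falls, against 6.98% and 5.82%. At point 5, 6 rose and 4 fell, 8.11% and 5.41% of the 74, against 8.97% and 7.83%. The share that fell at point 5 was thus below that of all genes on that scale. Quantile normalization gave 9.46% of the 74 there, against 7.93%. Of the 45 calls made as deposited, 17, in 12 genes, were also made in the same direction under both median-ratio scaling and quantile normalization. Among the 12 were Acsl3, Acsl4, Echdc3, Abcd4 and the peroxins Pex5, Pex6, Pex10, Pex11g, Pex14 and Pex16. Of the 45 calls, 13 held when each library of the point was left out in turn, and 32 did not. For calls kept under all scalings or in every leave-out, the matching share of all genes tested was not computed. Groups that lay apart were common among all genes tested. Every insulin library lay below every PBS library in 6.44%, 18.6%, 27.8%, 24.3% and 29% of them at points 1 to 5. Every one lay above in 2.99%, 4.86%, 7.65%, 8.01% and 6.42%. Among the 74, 4, 32, 31, 28 and 29 lay below and 2, 1, 4, 2 and 4 above.

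**Figure D1:**
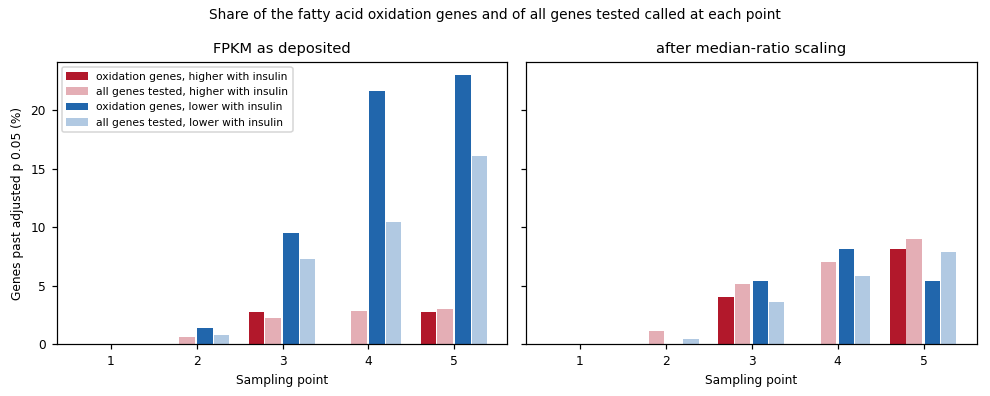
Percentage of the 74 fatty acid oxidation genes (dark bars) and of all 13589 genes tested (pale bars) that passed limma's test in insulin against PBS at each sampling point, split into genes higher and lower with insulin. At point 4, 21.6% of the genes fell as deposited (left panel) against 10.4% of all genes. After median-ratio scaling (right panel) 6 of 74, 8.11%, fell against 5.82% of all genes.

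**Figure D2:**
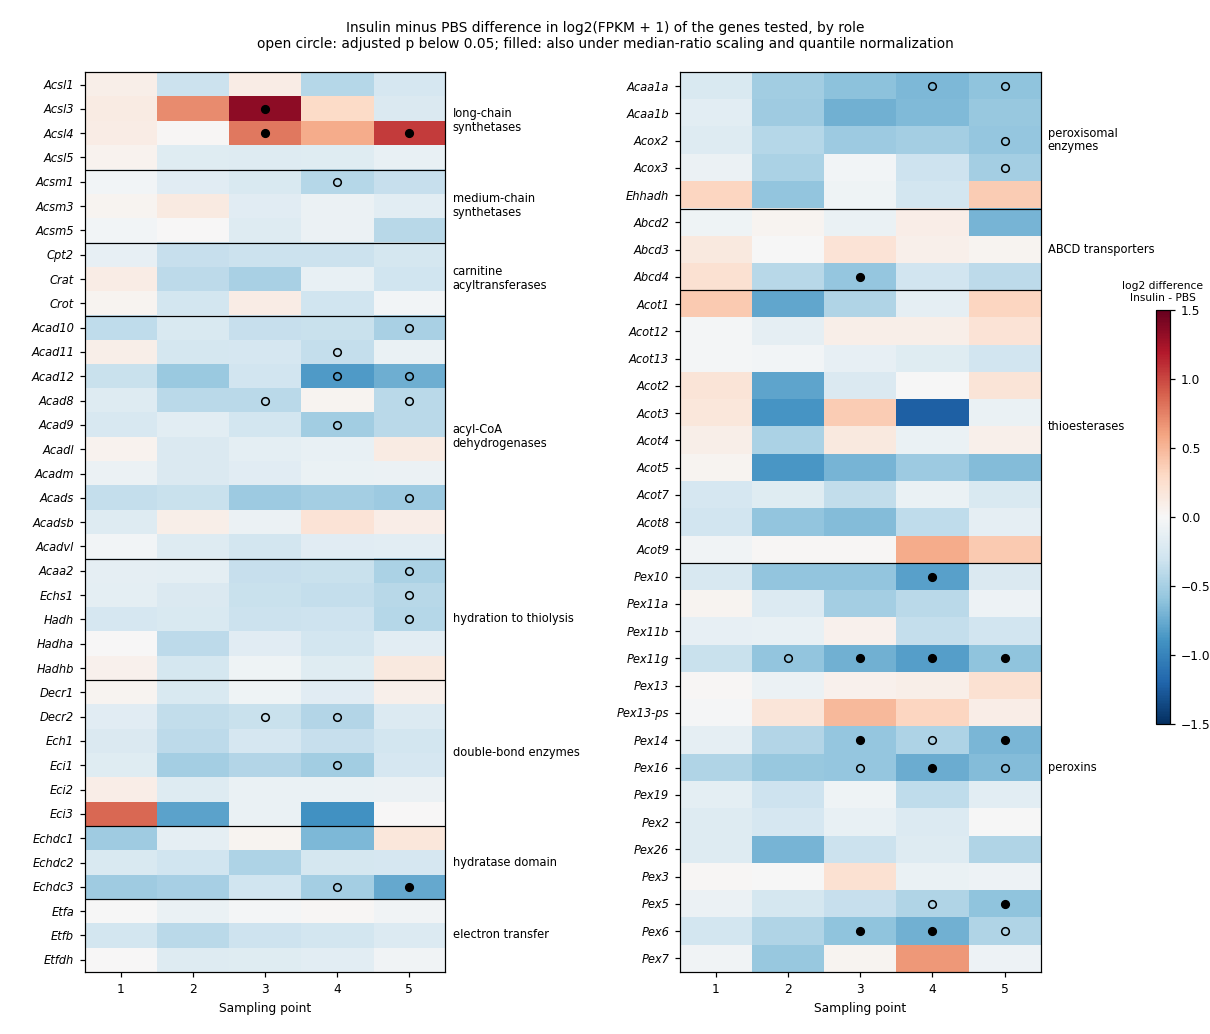
Difference of log2(FPKM + 1), insulin minus PBS, for 70 of the 74 tested genes (rows, grouped by role) at the 5 sampling points (columns), red higher and blue lower with insulin. Open circles mark adjusted p below 0.05 and filled circles calls also made under both other scalings. Filled circles fall mostly on peroxins and on Acsl3 and Acsl4.

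The first step, activation of the fatty acid, held the largest rises. Among the 4 tested long-chain acyl-CoA synthetases, Acsl3 and Acsl4 rose at point 3 and Acsl4 rose again at point 5, while Acsl1 and Acsl5 passed at no point. Acsl3 sits on the endoplasmic reticulum and on forming lipid droplets, and Acsl4 prefers arachidonic acid and other polyunsaturated fatty acids. Their promoters are shown because these were the genes that moved against the downward majority. They are RefSeq windows on GRCm38.p6, 250 bases before to 50 bases after a transcript start, given for Acsl3 as chr1:78657575-78657874, plus strand, and for Acsl4 as chrX:142390486-142390785, minus strand. Capitals mark a CCAAT box, and Acsl4's window held none of the motifs searched.
Acsl3: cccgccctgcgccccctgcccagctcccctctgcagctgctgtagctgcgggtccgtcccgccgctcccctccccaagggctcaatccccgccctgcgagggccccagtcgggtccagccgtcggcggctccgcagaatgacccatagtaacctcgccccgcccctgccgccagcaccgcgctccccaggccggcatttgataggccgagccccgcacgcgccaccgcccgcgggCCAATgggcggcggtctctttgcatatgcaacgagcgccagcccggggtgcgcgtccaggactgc
Acsl4: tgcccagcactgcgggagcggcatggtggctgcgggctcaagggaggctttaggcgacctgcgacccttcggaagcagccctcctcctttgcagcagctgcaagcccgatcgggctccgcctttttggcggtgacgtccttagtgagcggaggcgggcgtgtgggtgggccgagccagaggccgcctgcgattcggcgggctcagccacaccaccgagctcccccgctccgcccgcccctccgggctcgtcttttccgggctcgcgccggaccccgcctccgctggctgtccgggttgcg

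At point 3, Acsl3 had 5.53, 12.6 and 5.07 FPKM in the insulin libraries, against 1.40, 2.39 and 3.06 FPKM in the PBS libraries. Every insulin library lay above every PBS library, and insulin replicate 2 stood well above the other two. The difference was 1.34 ± 0.26 (SE, adjusted p = 0.00242), the largest rise among the 74, and 1.47 after median-ratio scaling. No single library removed the call, with adjusted p of 0.0229 without insulin replicate 2. A limma fit of that point's 6 libraries alone did remove it (adjusted p = 0.0578). At point 2 the groups also lay apart, with 4.51, 7.97 and 6.46 FPKM in insulin against 3.76, 3.03 and 3.39 FPKM in PBS, but the test was not passed (adjusted p = 0.156). By point 5 the groups overlapped, with 5.50, 3.91 and 2.70 FPKM in insulin against 5.76, 5.07 and 3.54 FPKM in PBS. In the annotation, 3.59% of the 50-base stretches of Acsl3's exons recur in other genes, most often in Utp14b, so a small part of its reads may be shared.

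Acsl4 had 16.9, 13.5 and 14.0 FPKM in insulin at point 3, against 7.55, 6.79 and 10.2 FPKM in PBS. The groups did not overlap, and the difference was 0.79 ± 0.23 (adjusted p = 0.0316). That call was lost without insulin replicate 1, 2 or 3 or PBS replicate 1 or 2 (adjusted p of 0.0586 to 0.116). At point 4 the values were 16.9, 21.0 and 14.6 FPKM in insulin against 11.2, 14.7 and 9.02 FPKM in PBS, with overlap and no call (adjusted p = 0.102). Point 5 gave the highest levels of the gene, 31.3, 25.2 and 31.3 FPKM in insulin against 16.4, 18.1 and 8.35 FPKM in PBS. All 3 insulin libraries exceeded every PBS library there, and the difference of 1.04 ± 0.23 (adjusted p = 0.00353) held without each library in turn. The call was lost in a fit of that point's 6 libraries alone (adjusted p = 0.06). Within the insulin libraries Acsl4 varied among points (limma F test, adjusted p = 0.000498), with means of 10.5, 11.0, 14.8, 17.5 and 29.3 FPKM at points 1 to 5. In PBS the means were 9.82, 10.8, 8.19, 11.6 and 14.3 FPKM.

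Acsl1, the most abundant of these synthetases, showed no called difference. It had 509, 481 and 665 FPKM in insulin at point 3 against 478, 614 and 441 FPKM in PBS, with overlap. At point 4 it had 344, 459.7 and 510.0 FPKM in insulin against 531, 643 and 573 FPKM in PBS, where every insulin library lay below every PBS library without passing the test (difference -0.43, 95% interval -0.84 to -0.01, adjusted p = 0.151). Differences of Acsl1 and Acsl5 over the 5 points ran from -0.43 to 0.11. Of the 3 tested medium-chain synthetases, Acsm1 fell at point 4, with 70.5, 69.3 and 87.6 FPKM in insulin against 100.1, 98.8 and 107 FPKM in PBS (difference -0.43, adjusted p = 0.0313). That call was absent after median-ratio scaling (adjusted p = 0.102) and was lost without insulin replicate 1 or 2 or PBS replicate 1, 2 or 3 (adjusted p of 0.0502 to 0.129). Acsm3 and Acsm5 passed at no point.

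**Figure D3:**
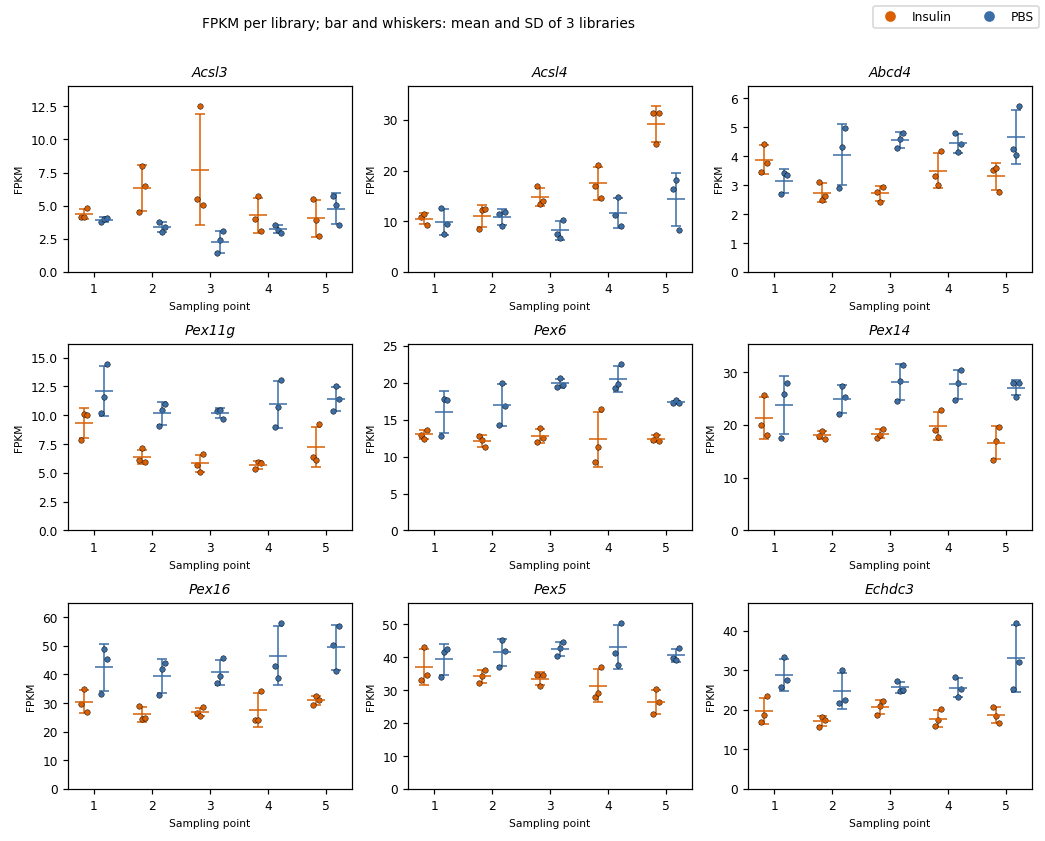
FPKM of 9 genes in each library at the 5 sampling points, insulin (orange) left of PBS (blue). Points are libraries, and bars with whiskers are the mean and SD of 3 libraries. Acsl4 reached 25.2 to 31.3 FPKM in insulin at point 5 against 8.35 to 18.1 FPKM in PBS. Pex11g, Pex6, Pex14 and Pex16 had lower means in insulin at all 5 points, point 1 included.

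The peroxins, the assembly factors of the peroxisome, held 10 of the 13 falls that were called under all 3 scalings. A fall here is a gene at 1 point, so a gene called at several points counts more than once. The 10 came from Pex5, Pex6, Pex10, Pex11g, Pex14 and Pex16, with Pex11g at 3 points and Pex6 and Pex14 at 2 each. The matching share over all genes tested was not computed. The 17 tested include the pseudogene Pex13-ps. Of the 17, 1, 4, 6 and 5 fell at points 2 to 5, against 0.736%, 7.26%, 10.4% and 16.1% of all genes tested. Only 1 rose, at point 5, against 2.96%. After median-ratio scaling 3, 4 and 3 fell at points 3, 4 and 5, against 3.58%, 5.82% and 7.83% of all genes tested. On the same scale 1 rose at point 3 and 2 rose at point 5, against 5.16% and 8.97%. The median of the 17 at point 5 was -0.16 as deposited and 0.06 after that scaling. Pex11g, a membrane protein of the family that elongates and divides peroxisomes, fell at points 2 to 5, and Pex6, an ATPase that pulls the import receptor back out of the membrane, at points 3 to 5. Their promoter windows are shown as those of the genes that fell at the most points under the most settings. Pex11g's lies at chr8:3467599-3467898, minus strand, with an AGGTCA half-site of the kind that PPARalpha and its partner RXR bind, and with the cAMP response element TGACGTCA, both in capitals. Pex6's lies at chr17:46711226-46711525, plus strand and held no motif searched.
Pex11g: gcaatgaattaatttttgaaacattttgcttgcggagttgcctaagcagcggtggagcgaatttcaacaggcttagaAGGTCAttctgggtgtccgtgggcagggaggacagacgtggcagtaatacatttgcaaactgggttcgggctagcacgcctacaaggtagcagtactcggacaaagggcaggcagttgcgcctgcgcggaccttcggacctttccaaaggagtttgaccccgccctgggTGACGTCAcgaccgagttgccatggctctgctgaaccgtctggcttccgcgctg
Pex6: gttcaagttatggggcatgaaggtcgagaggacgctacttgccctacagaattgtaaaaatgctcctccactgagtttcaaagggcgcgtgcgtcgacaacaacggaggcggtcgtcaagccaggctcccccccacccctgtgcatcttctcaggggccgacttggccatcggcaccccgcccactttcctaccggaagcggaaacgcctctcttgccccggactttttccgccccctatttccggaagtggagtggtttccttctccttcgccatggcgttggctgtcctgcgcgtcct

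Pex11g had 5.73, 5.10 and 6.63 FPKM in insulin at point 3, against 10.4, 10.5 and 9.66 FPKM in PBS. At point 4 the values were 5.30, 5.92 and 5.86 FPKM in insulin against 9.02, 10.7 and 13.1 FPKM in PBS. At point 5 they were 6.39, 6.10 and 9.26 FPKM in insulin against 10.4, 12.5 and 11.4 FPKM in PBS. No insulin library reached the lowest PBS library at any of the 5 points, point 1 included, where the test was not passed (adjusted p = 0.583). The differences were -0.72 ± 0.15 (adjusted p = 0.0041), -0.82 ± 0.15 (adjusted p = 0.00125) and -0.61 ± 0.15 (adjusted p = 0.00678). These 3 calls held without each library in turn and under both scalings. Those at points 4 and 5 were lost in fits of the point's 6 libraries alone (adjusted p = 0.0637 and 0.0712). An annotated gene on the opposite strand, Gm44775, overlaps 41.1% of Pex11g's exonic bases. Its own value was at most 0.20 FPKM and was listed in 10 libraries, but the strand setting of the quantification is not given in the sources used here.

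Pex6 had 12.0, 13.9 and 12.5 FPKM in insulin at point 3, against 19.5, 20.7 and 19.7 FPKM in PBS. At point 4 it had 9.28, 11.3 and 16.5 FPKM in insulin, against 19.3, 19.8 and 22.5 FPKM in PBS. The groups did not overlap at points 2 to 5, and the PBS libraries of point 3 spanned little more than 1 FPKM. The differences were -0.60 ± 0.14 at point 3 (adjusted p = 0.0113), which held under all 15 alternatives, and -0.72 ± 0.14 at point 4 (adjusted p = 0.00292), which was lost only in a fit of that point's 6 libraries alone (adjusted p = 0.105). At point 5, with 12.2, 13.0 and 12.1 FPKM in insulin and 17.2, 17.6 and 17.3 FPKM in PBS, the difference of -0.45 (adjusted p = 0.0311) was no longer called after median-ratio scaling (-0.24, adjusted p = 0.163) and was lost without insulin replicate 1 or 3 or PBS replicate 1, 2 or 3 (adjusted p of 0.0589 to 0.0948). Pex26, which anchors Pex6 at the membrane, passed at no point. Pex26 differed most at point 2, with 3.57, 3.81 and 5.98 FPKM in insulin against 6.68, 8.43 and 8.06 FPKM in PBS (adjusted p = 0.0874).

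Import of enzymes into the peroxisome begins with the receptor Pex5 and its docking protein Pex14. Pex14 had 13.4, 17.0 and 19.6 FPKM in insulin at point 5, against 28.0, 25.4 and 27.9 FPKM in PBS. The lowest PBS library exceeded the highest insulin library, and the difference was -0.69 ± 0.15 (adjusted p = 0.00434), which held under all 15 alternatives. Pex14 also fell at point 3 (-0.58, adjusted p = 0.0213) and at point 4 (-0.46, adjusted p = 0.0494), though at point 4 not after median-ratio scaling. The point 3 call was lost without insulin replicate 1 or 2 or PBS replicate 2 or 3 (adjusted p of 0.0611 to 0.0949). The point 4 call was lost without insulin replicate 1 or 2 or PBS replicate 1, 2 or 3 (adjusted p of 0.0565 to 0.185). Gm17029, on the opposite strand, overlaps 28.3% of Pex14's exonic bases and stood at 0.231 FPKM or less.

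Pex5 had 22.9, 30.3 and 26.5 FPKM in insulin at point 5, against 39.8, 39.1 and 42.9 FPKM in PBS. The groups lay apart there and at points 2, 3 and 4. At point 5 Pex5 fell by 0.60 on the log2 scale (SE 0.13, adjusted p = 0.00329). The fall at point 4 was smaller (-0.45, adjusted p = 0.0272) and was not called after median-ratio scaling (adjusted p = 0.0581). The point 5 call held without each library, and the point 4 call was lost without insulin replicate 1 or 2 or PBS replicate 1 or 3 (adjusted p of 0.0521 to 0.166). Pex13, the other docking protein, did not pass as deposited, with 14.2, 17.1 and 18.5 FPKM in insulin against 12.4, 15.3 and 14.1 FPKM in PBS at point 5, and was higher after median-ratio scaling only (0.44, adjusted p = 0.041).

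Pex16 places membrane proteins in the peroxisome together with Pex3 and Pex19. It had 24.1, 24.0 and 34.3 FPKM in insulin at point 4, against 43.0, 38.6 and 58.1 FPKM in PBS. All insulin libraries lay below all PBS libraries at points 2 to 5. The differences at points 3, 4 and 5 were -0.58, -0.74 and -0.65, each with SE 0.17 (adjusted p = 0.0314, 0.00673 and 0.0099). Without PBS replicate 3 the adjusted p were 0.128, 0.0554 and 0.061, so all 3 calls needed that replicate. After median-ratio scaling only the call at point 4 held, with adjusted p of 0.0933 at point 3 and 0.055 at point 5, and quantile normalization lost the call at point 3 (0.0787) and kept that at point 5 (0.0332). The call at point 3 was also lost without insulin replicate 1, 2 or 3 or PBS replicate 1, 2 or 3 (adjusted p of 0.0504 to 0.128). Pex3 and Pex19 passed at no point as deposited.

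Pex2 and Pex10 belong to the ubiquitin ligase that marks Pex5 for recycling. Pex10, a low gene, fell at point 4, to 1.10, 0.937 and 0.995 FPKM in insulin, against 2.17, 1.91 and 3.78 FPKM in PBS (difference -0.81 ± 0.20, adjusted p = 0.0117, and 0.0892 without PBS replicate 3). Pex2 passed at no point, with differences of -0.26 to -0.01. Pex11a, a PPARalpha target of the same family as Pex11g, had 42.0, 40.3 and 58.0 FPKM in insulin at point 3 against 54.1, 82.5 and 64.5 FPKM in PBS, with overlap and no call (adjusted p = 0.0924).

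Few enzymes of the mitochondrial chain passed the test. Cpt2, the inner-membrane carnitine palmitoyltransferase, passed at no point. At point 4 it had 64.2, 64.7 and 74.8 FPKM in insulin, against 73.3, 91.5 and 91.1 FPKM in PBS. The groups overlapped, with a difference of -0.32 and a 95% interval of -0.63 to -0.01 (adjusted p = 0.148).

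Acadm, the medium-chain acyl-CoA dehydrogenase, had 234, 301 and 254 FPKM in insulin at point 5 against 271, 285 and 275 FPKM in PBS, a difference of -0.08 with a 95% interval of -0.34 to 0.17. Acadvl, its very-long-chain counterpart, had 159, 167 and 179 FPKM in insulin at point 3 against 204, 199 and 207 FPKM in PBS. Insulin libraries of Acadvl lay below PBS libraries at points 2 and 3, but its smallest adjusted p was 0.102. Acadvl shares 42.9% of its exonic bases with Dvl2 on the opposite strand.

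Hadha and Hadhb encode the subunits of the trifunctional protein, which carries out the last 3 steps on long chains. They are transcribed head to head on chromosome 5, 85 bases apart in GENCODE M21. Hadha had 90.2, 109 and 105 FPKM in insulin at point 2 against 116, 135 and 152 FPKM in PBS, where the groups lay apart without passing the test (-0.40, adjusted p = 0.132). Hadhb had 96.5, 108 and 116 FPKM in insulin against 126, 127 and 132 FPKM in PBS at that point. Their differences were 0.01, -0.40, -0.17, -0.27 and -0.16 for Hadha and 0.07, -0.26, -0.06, -0.19 and 0.15 for Hadhb. Hadhb was not called as deposited and was higher at point 5 after median-ratio scaling (0.37, adjusted p = 0.013) and after quantile normalization (adjusted p = 0.0225).

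Among the enzymes of shorter chains, 4 genes passed, all at point 5. Hadh, the short-chain hydroxyacyl-CoA dehydrogenase, fell to 118, 129.9 and 119 FPKM in insulin, against 161, 173 and 161 FPKM in PBS (-0.43 ± 0.11, adjusted p = 0.0102). Acaa2, the mitochondrial thiolase, fell to 299, 382 and 335 FPKM in insulin, against 467, 453 and 481 FPKM in PBS (-0.47 ± 0.13, adjusted p = 0.0132). The groups lay apart in both genes. Echs1, the short-chain enoyl-CoA hydratase, also fell (-0.42, adjusted p = 0.0278), as did Acads, the short-chain acyl-CoA dehydrogenase (-0.54, adjusted p = 0.0385). After median-ratio scaling the adjusted p of Hadh, Acaa2, Echs1 and Acads were 0.074, 0.054, 0.202 and 0.152, so none was called, while quantile normalization kept Hadh and Acaa2. The call of Hadh held without each library. That of Acaa2 was lost without insulin replicate 1 or PBS replicate 3 (adjusted p = 0.0851 and 0.0511), that of Echs1 without insulin replicate 1 or 3 or PBS replicate 1 or 2 (adjusted p of 0.0637 to 0.0907), and that of Acads without insulin replicate 1, 2 or 3 or PBS replicate 1, 2 or 3 (adjusted p of 0.0509 to 0.14).

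Of the other acyl-CoA dehydrogenases, Acad12 fell at points 4 and 5, with 2.19, 1.37 and 3.39 FPKM in insulin against 3.75, 5.16 and 5.59 FPKM in PBS at point 4 (-0.85 ± 0.23, adjusted p = 0.0189). That call was lost without insulin replicate 1 or 2 or PBS replicate 3 (adjusted p of 0.0615 to 0.122), and the call at point 5 without insulin replicate 1, 2 or 3 or PBS replicate 1 or 2 (adjusted p of 0.0536 to 0.116). After median-ratio scaling the point 4 call of Acad12 held (adjusted p = 0.0454) and that of point 5 did not (0.107), and after quantile normalization neither did. Acad12 lies beside Acad10 and shares sequence with it, so reads may be split between them. Acad8, the isobutyryl-CoA dehydrogenase of valine breakdown, fell at points 3 and 5 (-0.40 and -0.41) and at point 4 had 24.2, 24.7 and 22.6 FPKM in insulin against 22.7, 22.1 and 24.6 FPKM in PBS, with full overlap. Neither call held after median-ratio scaling (adjusted p = 0.172 and 0.226) or quantile normalization (0.0938 and 0.1). Its point 3 call was lost without insulin replicate 1, 2 or 3 or PBS replicate 1 or 3 (adjusted p of 0.0593 to 0.134), and its point 5 call without insulin replicate 1 or PBS replicate 3 (adjusted p = 0.125 and 0.0849). Acad9 and Acad11 fell at point 4 and Acad10 at point 5, none of them after median-ratio scaling. The call of Acad9 was lost without insulin replicate 2 or PBS replicate 1 or 3 (adjusted p of 0.0678 to 0.188), that of Acad11 without insulin replicate 1 or 2 or PBS replicate 2 or 3 (adjusted p of 0.0501 to 0.176), and that of Acad10 without insulin replicate 2 or PBS replicate 2 (adjusted p = 0.069 and 0.0685). Acadl, a long-chain enzyme, was not called as deposited and was higher at point 5 after median-ratio scaling (0.35, adjusted p = 0.0208) and after quantile normalization (adjusted p = 0.0425).

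**Figure D4:**
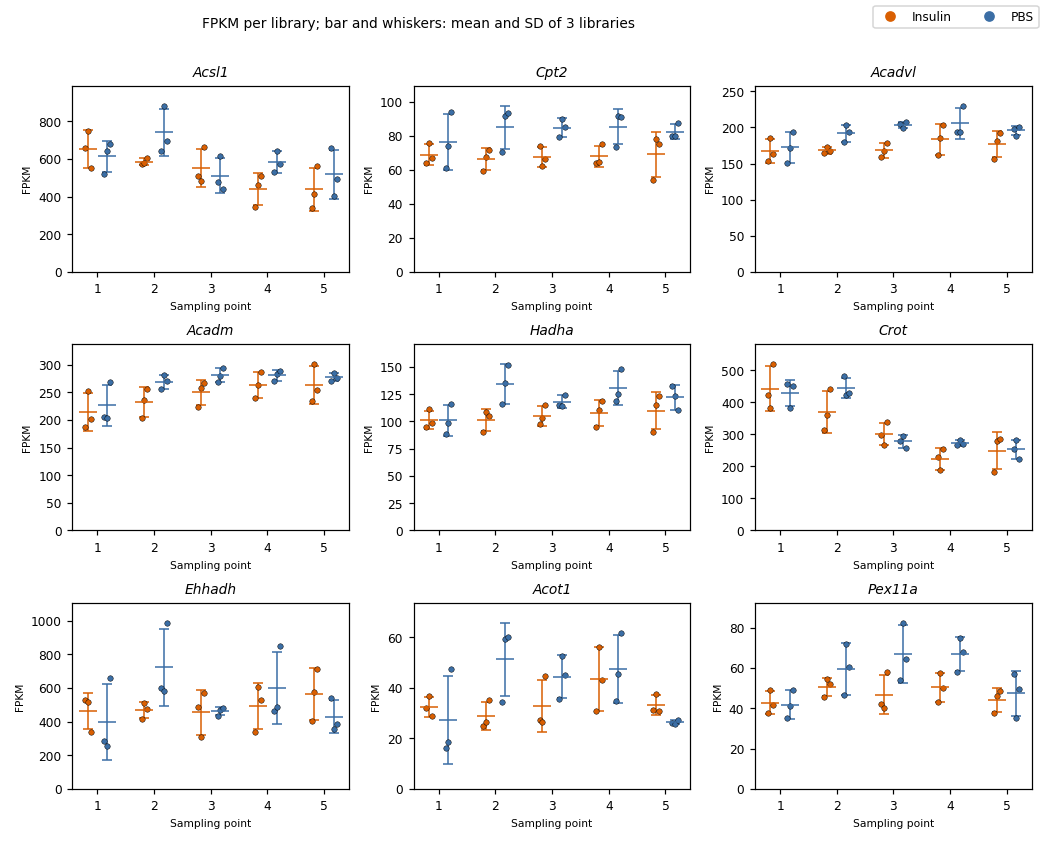
FPKM of 9 genes of mitochondrial and peroxisomal oxidation and of peroxisome division in each library at the 5 sampling points, insulin (orange) left of PBS (blue), with the mean and SD of 3 libraries. None of these 9 genes passed limma's test between treatments at any point, and Crot had means of 442 FPKM in insulin and 429 FPKM in PBS at point 1, and of 249 FPKM and 253 FPKM at point 5.

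Electrons from the dehydrogenases pass through the flavoprotein subunits Etfa and Etfb to Etfdh, and none of these 3 genes passed at any point, though Etfb had an unadjusted p below 0.05 at points 2 and 3. Their differences ran from -0.41, for Etfb at point 2, to 0.02, for Etfa at point 4. Gm45233 and Mir7051, annotated on the same strand, overlap 58.2% of Etfb's exonic bases. Of its 50-base stretches 44.8% recur in other genes, most of them in Gm45233, so its reads may be split. Etfdh had 160.4, 192 and 197 FPKM in insulin at point 5 against 182, 193 and 191 FPKM in PBS. The groups overlapped, and the 95% interval of the difference was -0.31 to 0.21.

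The enzymes for unsaturated chains are the Decr reductases and the Eci isomerases. Decr2, the peroxisomal dienoyl-CoA reductase, fell at points 3 and 4, with 108, 104 and 119 FPKM in insulin against 152, 141 and 155 FPKM in PBS at point 4 (-0.44 ± 0.10, adjusted p = 0.00752). Eci1, the mitochondrial isomerase, fell at point 4 (-0.52, adjusted p = 0.0222). The groups lay apart in both, and neither was called after median-ratio scaling (adjusted p = 0.0869 and 0.0764). Decr2's call at point 4 held without each library. Its call at point 3 was absent after median-ratio scaling (adjusted p = 0.361) and was lost without insulin replicate 1, 2 or 3 or PBS replicate 1, 2 or 3 (adjusted p of 0.0548 to 0.159), and that of Eci1 without insulin replicate 1 or 2 or PBS replicate 3 (adjusted p of 0.0574 to 0.154). Eci3 had a value in 7 libraries only, and its cells without one were set to 0.

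Echdc3, which encodes a protein with an enoyl-CoA hydratase domain, had 20.6, 18.5 and 16.6 FPKM in insulin at point 5, against 25.1, 42.0 and 32.0 FPKM in PBS. Every insulin library lay below every PBS library at all 5 points. Echdc3 fell at point 5 (-0.77 ± 0.16, adjusted p = 0.00203), a call that held without each library and under both scalings, and at point 4 (-0.51, adjusted p = 0.0348), a call absent under both scalings and lost without insulin replicate 1 or 2 or PBS replicate 1 or 3 (adjusted p of 0.0915 to 0.145). The call at point 5 was lost in a fit of that point's 6 libraries alone (adjusted p = 0.0545). At point 1 the difference was -0.53, which did not pass (adjusted p = 0.526).

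Peroxisomal oxidation starts with the acyl-CoA oxidases. Acox2, which shortens bile acid precursors, and Acox3, for branched chains, fell at point 5 (-0.58 and -0.51, adjusted p = 0.0292 and 0.0119), and neither was called after median-ratio scaling. The call of Acox3 held without each library, and that of Acox2 was lost without insulin replicate 1 or PBS replicate 2 or 3 (adjusted p of 0.0789 to 0.135).

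Ehhadh, the bifunctional enzyme of the middle steps, varied widely between libraries of a group. At point 1 it had 529.8, 519 and 339 FPKM in insulin, against 282, 256 and 660.2 FPKM in PBS. At point 2 it had 416, 509.9 and 476 FPKM in insulin, against 597, 583 and 988 FPKM in PBS. The second pair of groups lay apart, yet with a 95% interval of -1.26 to 0.08 the test was not passed (adjusted p = 0.337). Acaa1a, a peroxisomal thiolase for the last step, fell at point 4, to 119, 142 and 179 FPKM in insulin, against 190.3, 214 and 305 FPKM in PBS (-0.68 ± 0.20, adjusted p = 0.0303), and at point 5 (-0.61, adjusted p = 0.0384). The call at point 4 was lost without insulin replicate 1 or 2 or PBS replicate 3 (adjusted p of 0.0906 to 0.187) and that at point 5 without insulin replicate 1 or 3 or PBS replicate 1 or 3 (adjusted p of 0.07 to 0.143). After median-ratio scaling neither held (adjusted p = 0.0576 at point 4 and 0.135 at point 5), and after quantile normalization only that at point 4 did (0.0327, against 0.116 at point 5). Of Acaa1a's 50-base stretches 12.9% recur in other genes, most often in Acaa1b, so the split between these copies is uncertain.

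Among the ABCD transporters, Abcd4 fell at point 3, with 2.77, 2.43 and 2.95 FPKM in insulin against 4.28, 4.59 and 4.81 FPKM in PBS (-0.58, adjusted p = 0.0151). At point 1 its insulin libraries, at 3.46, 4.43 and 3.76 FPKM, all lay above the PBS libraries, at 2.68, 3.44 and 3.35 FPKM, without passing the test. Its call at point 3 was lost without insulin replicate 2 or PBS replicate 3 (adjusted p = 0.0661 and 0.0591). Abcd3, the most abundant transporter, passed at no point and had 207, 240.0 and 234 FPKM in insulin at point 4 against 192, 241 and 215 FPKM in PBS.

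Thioesterases release the free fatty acid from acyl-CoA, and none of the 10 tested passed at any point as deposited, with 6 of them at an unadjusted p below 0.05 at some point. Acot1, a cytosolic PPARalpha target, had 25.1, 26.5 and 35.2 FPKM in insulin at point 2, against 34.4, 59.1 and 60.1 FPKM in PBS. At point 5 it had 31.4, 37.7 and 30.7 FPKM in insulin, against 26.0, 25.7 and 27.2 FPKM in PBS. The insulin libraries thus lay mostly lower at point 2 and all higher at point 5, with adjusted p of 0.189 and 0.474. Of Acot1's 50-base stretches 19.2% recur in other genes, most often in its neighbour Acot2. Both belong to a run of 6 Acot genes on chromosome 12. Acot3, from the same run, had 6.23, 12.6 and 8.28 FPKM in insulin at point 4 against 17.4, 20.0 and 29.1 FPKM in PBS, the largest difference at that point among the 74 (-1.23 ± 0.51), which its spread left without a call (adjusted p = 0.107). Acot12, a cytosolic acetyl-CoA thioesterase, was higher at point 5 after median-ratio scaling (0.42, adjusted p = 0.00275), with 56.0, 63.3 and 67.9 FPKM in insulin against 54.4, 52.0 and 55.4 FPKM in PBS as deposited (adjusted p = 0.128).

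Crot, the peroxisomal carnitine octanoyltransferase that prepares shortened chains for export, had the smallest adjusted p of the 74 for differences among sampling points in both treatments. At point 1 it had 423, 383 and 519 FPKM in insulin, against 456, 381 and 449.6 FPKM in PBS. At point 5 it had 181, 280.1 and 287 FPKM in insulin, against 253, 283 and 224 FPKM in PBS. Point 1 lay above point 5 in both treatments with no overlap, while insulin and PBS overlapped at both points. Crot varied among points in insulin libraries (limma F test, adjusted p = 0.000455) and in PBS libraries (adjusted p = 0.00256), and passed at no point between treatments. Its means at points 1 to 5 were 442, 371, 301, 224 and 249 FPKM in insulin and 429, 445, 278, 273 and 253 FPKM in PBS.

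In the insulin libraries 5 of the 74 genes, 6.76%, varied among points, against 13.3% of all genes tested. Crot, Acsl4, Pex26 (adjusted p = 0.0175) and Pex11g (0.0195) were among them. Pex26 had means of 4.66, 4.45, 7.52, 8.43 and 7.38 FPKM at points 1 to 5 in insulin. In the PBS libraries only Crot, 1.35% of the 74, passed, against 3.27% of all genes, followed by Acot3 (adjusted p = 0.0539), Pex26 (0.0914) and Acot1 (0.0951). Leaving out the libraries that share a replicate number gave 2 genes in insulin without replicate 1 and 3 without replicate 2, and 0 in PBS without replicate 1. Whether the difference between insulin and PBS itself depended on the point was asked with an F test in limma. It passed for 0 of the 74 genes, against 1.77% of all genes tested. An unadjusted p below 0.05 was reached by 6 of the 74, and the matching share of all genes was not computed. Among the smallest adjusted p were 0.101 for Acsl3, 0.174 for Abcd4, 0.272 for Acsl4, 0.425 for Acad8 and 0.432 for Acot1. A gene called at 1 point and not at another is therefore not shown to differ between those points.

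Genes around the pathway, chosen from textbook knowledge and not members, gave a mixed picture. Their counts are to be read against the shares of all genes tested. At points 2 to 5, 0.736%, 7.26%, 10.4% and 16.1% of all genes fell and 0.618%, 2.19%, 2.82% and 2.96% rose. With median-ratio scaling 0.419%, 3.58%, 5.82% and 7.83% fell and 1.1%, 5.16%, 6.98% and 8.97% rose. Of 16 genes of fatty acid uptake, control of activation and carnitine entry, 1, 1, 6 and 1 fell at points 2, 3, 4 and 5 and 1 rose at point 5. After median-ratio scaling 0, 1, 3 and 0 fell at these points, while 1 rose at point 3 and 2 at point 5. Cpt1a, the outer-membrane carnitine palmitoyltransferase that gates entry, fell at point 4 to 103, 110.2 and 136 FPKM in insulin, against 150.5, 167 and 193 FPKM in PBS (-0.54, adjusted p = 0.0219). Mlycd, which destroys the Cpt1a inhibitor malonyl-CoA, fell at points 3, 4 and 5 (-0.68, -0.71 and -0.47, adjusted p = 0.0081, 0.00481 and 0.0322). Acacb, which makes malonyl-CoA, fell at point 4 (-0.80). The fatty acid transporter Slc27a1 fell at points 2 and 4 (-1.41 and -1.26). The carnitine transporter Slc22a5 rose at point 5 (0.55). The calls of Cpt1a (adjusted p = 0.0533), of Mlycd at point 5 (0.128) and of Slc27a1 at point 2 (0.0781) were absent after median-ratio scaling. The calls of Mlycd at points 3 and 4 and of Slc22a5 held without each library. The call of Mlycd at point 4 was lost in a fit of that point's 6 libraries alone (adjusted p = 0.0769). That of Cpt1a was lost without insulin replicate 1 or 2 or PBS replicate 3 (adjusted p of 0.0836 to 0.116), that of Acacb without insulin replicate 1 or PBS replicate 2 or 3 (adjusted p of 0.0566 to 0.144), and that of Mlycd at point 5 without insulin replicate 1 or 3 or PBS replicate 2 or 3 (adjusted p of 0.0618 to 0.145). Slc27a1 was lost at point 2 without insulin replicate 1, 2 or 3 or PBS replicate 2 or 3 (adjusted p of 0.0689 to 0.229) and at point 4 without insulin replicate 1 or 2 or PBS replicate 2 or 3 (adjusted p of 0.053 to 0.107).

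Of 6 ketone body enzymes, 1 fell at points 2, 3 and 4 and 2 at point 5, against 0.736%, 7.26%, 10.4% and 16.1% of all genes tested. Bdh1, which makes beta-hydroxybutyrate, fell at all 4 of these points, also after median-ratio scaling, when it was the only one of the 6 called. It had 69.5, 61.2 and 75.0 FPKM in insulin at point 4 against 109.7, 114 and 126 FPKM in PBS (-0.76, adjusted p = 0.000289). Its calls at points 3, 4 and 5 held without each library, and that at point 2 was lost without PBS replicate 2 (adjusted p = 0.0675).

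Among peroxisomal genes outside the members, 15 were tested. Of these, 0 rose at any point and 1, 2, 4 and 5 fell at points 2 to 5, against 0.736%, 7.26%, 10.4% and 16.1% of all genes tested. Amacr, the racemase for branched chains and bile acid precursors, fell at all 4 of these points, with 25.4, 22.1 and 29.4 FPKM in insulin at point 4 against 44.2, 44.9 and 58.2 FPKM in PBS (-0.91 ± 0.13, adjusted p = 0.000173). At point 5 the peroxisomal proteases Tysnd1 and Lonp2 fell (-0.94 and -0.60, adjusted p = 0.00181 and 0.00252). These calls held without each library, apart from that of Amacr at point 2, lost without insulin replicate 1, 2 or 3 or PBS replicate 2 or 3 (adjusted p of 0.063 to 0.19). Amacr's call at point 4 was lost in a fit of that point's 6 libraries alone (adjusted p = 0.0564). The median over the list was nevertheless -0.01 at point 5, against -0.17 for all genes tested. After median-ratio scaling 0, 2, 3 and 3 of the 15 fell at points 2 to 5, without Amacr at point 2 (adjusted p = 0.0617), and 3, 1 and 2 rose at points 3, 4 and 5.

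Of 20 PPARalpha targets outside the members, 3 fell at each of points 2, 3 and 4 and 1 at point 5, while 1 rose at point 4 and 2 at point 5. Among all genes tested 0.736%, 7.26%, 10.4% and 16.1% fell at points 2 to 5, and 2.82% and 2.96% rose at points 4 and 5. After median-ratio scaling 2, 3, 2 and 1 fell at points 2 to 5, and 2 rose at point 4 and 4 at point 5. Plin2, a lipid droplet coat protein, fell at points 2, 3 and 4 (-0.94, -0.89 and -0.91), as did the lipase inhibitor Angptl4 at points 2 and 3 (-1.89 and -0.68). At point 5 Angptl4 rose, with 86.6, 89.3 and 84.6 FPKM in insulin against 55.3, 55.7 and 61.3 FPKM in PBS (0.59, adjusted p = 0.00751). Pdk4, the kinase that turns off pyruvate oxidation, rose at points 4 and 5 (3.30 and 3.05). Creb3l3, a liver transcription factor, fell at points 3, 4 and 5 (-0.66, -0.75 and -0.73). The calls of Plin2 were lost without insulin replicate 1 or 2 or PBS replicate 2 or 3 (adjusted p of 0.0974 to 0.171) at point 2, without insulin replicate 2 or PBS replicate 3 (adjusted p = 0.0799 and 0.0559) at point 3 and without insulin replicate 2 or PBS replicate 3 (adjusted p = 0.0802 and 0.0609) at point 4, and that of Creb3l3 at point 3 without insulin replicate 2 or PBS replicate 3 (adjusted p = 0.0688 and 0.0553). Some genes stand in more than 1 of these lists.

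Among 20 transcriptional regulators, 2 rose and 4 fell at each of points 3, 4 and 5, and 1 fell at points 1 and 2. The shares of all genes tested were 2.19%, 2.82% and 2.96% for rises at points 3 to 5. For falls they were 0.00736%, 0.736%, 7.26%, 10.4% and 16.1% at points 1 to 5. After median-ratio scaling 1, 0, 3, 3 and 2 fell at points 1 to 5, and 2, 3 and 4 rose at points 3, 4 and 5. Ppara itself fell at point 3, to 33.8, 26.0 and 42.6 FPKM in insulin, against 58.7, 69.4 and 63.2 FPKM in PBS (-0.91 ± 0.15, adjusted p = 0.000781), and at point 4 (-0.60, adjusted p = 0.0148). Its partner Rxra fell at points 3, 4 and 5 (-0.66, -0.59 and -0.75). The call of Ppara at point 4 was absent after median-ratio scaling (adjusted p = 0.0514) and was lost without insulin replicate 2 or PBS replicate 3 (adjusted p = 0.0566 and 0.079), and that of Rxra at point 4 without insulin replicate 1 (adjusted p = 0.0511). Ppargc1a, a coactivator of PPARalpha that promotes oxidation, rose at points 3, 4 and 5 (2.64, 1.44 and 1.56). Lpin1, a phosphatase that also acts as a coactivator of PPARalpha, fell at point 1, to 8.10, 5.44 and 4.09 FPKM in insulin, against 37.7, 21.9 and 14.0 FPKM in PBS (-1.83, adjusted p = 0.0107), the only fall of that point among all genes tested, lost without insulin replicate 2 or 3 (adjusted p = 0.0835 and 0.0907). The point 1 call of Lpin1 was also lost in a fit of that point's 6 libraries alone (adjusted p = 0.854). At point 5 Lpin1 rose, to 134, 179.6 and 229 FPKM in insulin, against 47.5, 34.6 and 34.5 FPKM in PBS (2.17, adjusted p = 3.44e-05).

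None of 4 genes of the odd-chain steps passed at any point, with 2 of them at an unadjusted p below 0.05 at some point. Of 9 fatty acid synthesis genes, 1 rose at point 3, 1 fell at point 4 and 3 fell at point 5, against 2.19%, 10.4% and 16.1% of all genes tested. After median-ratio scaling 1 rose at each of points 3, 4 and 5, and 1 and 2 fell at points 4 and 5. Fasn, the fatty acid synthase, fell at points 4 and 5, and its point 5 call held without each library (-1.15, adjusted p = 0.00318).

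Markers of other cells moved at the same points, and their part in the results was not tested. Among all genes tested 7.26%, 10.4% and 16.1% fell at points 3 to 5, and 3.58%, 5.82% and 7.83% after median-ratio scaling. Of 7 Kupffer cell markers, 3 fell at point 4 and 1 at point 5, with a sum of 72.5 to 91.7 FPKM in insulin libraries and 96.5 to 204 FPKM in PBS libraries at point 4. Of 8 sinusoidal endothelial markers, 1 fell at point 3, 1 at point 4 and 5 at point 5, where 16.1% of all genes fell, with a sum of 50.4 to 60.9 FPKM in insulin and 75.2 to 79.2 FPKM in PBS at point 5. Of 7 periportal hepatocyte markers, 2 fell at point 4 and 4 at point 5, with sums at point 5 of 2633 to 3293 FPKM in insulin and 3350 to 3832 FPKM in PBS. Of 8 pericentral markers, 1 fell at point 3 and 2 at point 4. Of 7 stellate cell and fibroblast markers, 1 fell at each of points 3, 4 and 5. Of 5 erythroid markers, 1 fell at point 5, and 1 of the 3 tested bile duct markers at point 4. After median-ratio scaling these falls were fewer: 0 sinusoidal markers at points 3 and 4, 2 Kupffer at point 4, 0 Kupffer and 1 sinusoidal at point 5, 1 periportal at point 4 and 2 at point 5, 0 pericentral at point 3 and 1 at point 4, and 0 erythroid. On that scale 1 stellate marker fell at point 3, 0 at point 4 and 1 at point 5, where another rose, and the bile duct call held. Lymphocyte markers summed to at most 2.24 FPKM and neutrophil markers to at most 7.43 FPKM in any library. Of Adipoq, Plin1 and Lep, markers of fat cells, only 1 was among the genes listed, at 0.185 FPKM or less. None of 11 RNA quality genes passed at any point as deposited, with 3 at an unadjusted p below 0.05 at some point, and 2 were higher at point 3 after median-ratio scaling.

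Promoter windows on chromosome 18, where Acaa2 lies, were left out. On the other chromosomes the windows of 63 of the 80 genes, 76 windows in all, could be matched by symbol in RefSeq. On either strand the half-site AGGTCA was found in 17.1% of these 76, against 16.3% of all 32851 windows of the same length that were kept. Its repeat with 1 base between, the element bound by PPARalpha with RXR, was found in 0 of the 76 and in 0.04% of all. The cAMP response element TGACGTCA stood in 2.63% against 1.79%, the FOXO site GTAAACA in 1.32% against 3.65%, the E-box CACGTG in 5.26% against 7.15% and CCAAT in 47.4% against 37.4%. The AGGTCA repeat contains the half-site. The median GC content was 57.7% in these windows and 52.7% in all. These matches describe letters within 300 bases and say nothing about binding.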

How the data were processed

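Poly(A) RNA of mouse liver was sequenced in 30 libraries, 3 per treatment and sampling point. The authors deposited 1 table of FPKM per gene. Per the submitters' processing notes, HISAT2 2.1.0, SAMtools 1.9 and StringTie 2.0.3 were used with GRCm38. No source used here states the annotation or strand setting. The table listed no value for 32.2% of its cells and no value of exactly 0, and such cells were set to 0, which touched 2 of the 74 tested genes.

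FPKM are not counts, so limma 3.58.1 (R 4.3.3) was fitted to log2(FPKM + 1) with 10 group means, a variance trend, 20 residual degrees of freedom and Benjamini-Hochberg adjustment over 13589 genes. FPKM holds no depth, and depth was estimated roughly from the steps between low values. The fit was tested on simulated data. The genes and lists were chosen with earlier results of these data known. Genes named are, per point, up to 6 called genes in each direction whose groups did not overlap, 10 core genes, those with the smallest p in the F tests, and up to 3 called genes per direction of each pathway list. Others were named after their values were seen. Some genes the rule names are counted but not reported here. Alternatives were another pseudocount, filter and scaling, a replicate block, a random effect of library series, 1 point fitted alone, and each library or series left out. Promoter windows come from RefSeq (GRCm38.p6), overlaps from GENCODE M21.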

Additional observations from a re-analysis of the deposited data

How the results depend on the processing

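No called difference changed sign under any alternative tried. The number of genes that fell, 1, 7, 16 and 17 at points 2 to 5, moved with the scaling of libraries. Median-ratio scaling gave 0, 4, 6 and 4, and quantile normalization gave 0, 4, 7 and 7. The number that rose at point 5, 2 as deposited, was 6 under the first and 5 under the second. Without the filter on low values, 0 fell at point 2, 11 fell at point 5 and 1 rose at point 3. With a filter of mean FPKM of 5 or more, 12 fell at point 3 and 1 rose at each of points 3 and 5. In fits of 1 point's 6 libraries alone, 0 fell at points 2 and 4 and 7 at point 5, and 1 rose at point 3 and 0 at point 5. A pseudocount of 0.1 kept every count within 1.5 times. Except for the scalings, the matching shares of all genes were not computed, here or for the leave-outs and replicate block below. Apart from what these settings do by construction, the cause was not tested.

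Without 1 library of a point at a time, 0 to 9 fell at point 2, 2 to 7 at point 3, 4 to 23 at point 4 and 8 to 14 at point 5, and 1 to 2 rose at points 3 and 5. The number of genes that varied among points in insulin, 5, was 8 with median-ratio scaling and 2 to 4 without 1 series of libraries. In PBS it was 1, against 3 with quantile normalization, 3 with a random effect of series, 2 with the filter of mean FPKM of 5 or more, 2 without genes that lack a value in any library, and 0 to 1 without 1 series. The test of whether the difference depended on the point passed for 0 of the genes under every setting run.

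With a replicate block, 5, 19, 21 and 20 genes fell at points 2 to 5 and 3 varied among points in PBS. The replicate numbers are only shared numbers: of 15 correlations between deviations of same-numbered libraries, 7 were negative and 1 was over 0.1. FPKM give no counts, so no counting error can be stated, and 3 libraries per group limit precision: the 95% interval of a difference reached a median of 0.32 to either side on the log2 scale.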
